A study of Homo sapiens with 4 samples.

Results

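XRCC5, HMGB1, PCNA and RAD23B are 4 DNA repair genes among the 4208 genes of a table that counts nuclear RNA on each side of the poly(A) site (PAS). Each gene was taken by its symbol and had 1 row. They were chosen by their measured values, with the upstream reads, the downstream reads and the ratio of these in the same libraries already known, so these values are a description and carry no test. The cells were A549, a human lung tumor line, either exposed to UVC light (254 nm, 40 J/m2) and left to recover for 16 h (UV+) or not irradiated (UV−), with 2 libraries in each condition. Irradiation was the only difference that the labels give between them. RNA came from the nuclear fraction, was freed of ribosomal RNA and was sequenced with its strand.

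At the end of a gene, RNA polymerase II transcribes through the PAS, and the cleavage machinery cuts the pre-mRNA there before a poly(A) tail is added. The part beyond the cut is normally degraded quickly, and the study reads the 500-nt window upstream as total RNA and the 500-nt window downstream as PAS-uncleaved RNA. The 4 genes act at different steps of the response to damaged DNA. XRCC5 encodes the Ku80 subunit of the ring that binds broken DNA ends for end joining. RAD23B is a partner of the XPC protein, which detects the helix-distorting lesions left by UV for nucleotide excision repair. PCNA is the sliding clamp that holds DNA polymerases on the template during replication and during the repair synthesis that fills an excised gap. HMGB1 is an abundant chromatin protein that bends DNA and binds distorted DNA.

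The sequence in front of the PAS is shown because the 4 genes differ there in the signal that the cleavage machinery reads. Each run is 30 nt of the sense strand of hg19, written 5′ to 3′, with AATAAA or ATTAAA in capitals, or, where neither is present, the variants found. The runs of HMGB1, PCNA and RAD23B end at the PAS, and that of XRCC5 ends 6 nt before it.
XRCC5, chr2:217070981-217071010, plus strand: aacATTAAAggcataaatgactcatctctc
HMGB1, chr13:31032879-31032908, minus strand: ggggtaatgATTAAAtgataaagataagaa
PCNA, chr20:5095599-5095628, minus strand: taAATAAAgttacttgaatttcaaacatca
RAD23B, chr9:110094446-110094475, plus strand: ttgatTATAAAatattttcAATACAtccaa

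PCNA was the 1 gene of the 4 with the canonical AATAAA, 28 nt before the cut. XRCC5 and HMGB1 had ATTAAA, at 33 and 21 nt. RAD23B had neither in its last 50 nt and held TATAAA and AATACA instead. Searched on the sense strand of the last 50 nt, AATAAA was present at 58.0% of the 4205 sites with a usable position, ATTAAA without AATAAA at 14.7% and neither at 27.2%. The variants searched were AGTAAA and TATAAA, then CATAAA and GATAAA, then AATATA and AATACA, and last AATAGA and ACTAAA, and at 11.3% of the sites at least 1 of them was present with neither main signal. TATAAA was present at 6.25% and AATACA at 4.02% of all sites. XRCC5 also held CATAAA and HMGB1 GATAAA. A match is a description of these letters and not evidence that the site is used.

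Past the cut, the first 30 nt of each gene are shown because GT-rich sequence there belongs to the usual layout of a PAS.
XRCC5, chr2:217071017-217071046, plus strand: ttgctgctaattattgtctgcaaaagactt
HMGB1, chr13:31032849-31032878, minus strand: aagcgcccatgtaacacaaactgccattca
PCNA, chr20:5095569-5095598, minus strand: cagggcagtgtcttcattttgaccaggact
RAD23B, chr9:110094476-110094505, plus strand: cattgcacttctcattttttaaatgattct

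G and T made up 17 of the 30 bases in XRCC5, PCNA and RAD23B and 9 of 30 in HMGB1. Over the first 100 nt, the G and T content was 50% in XRCC5, 45% in HMGB1 and 55% in both PCNA and RAD23B, where the median site had 55%. HMGB1 lay at percentile 7.61 of all sites in this measure, below the other 3. None of the 4 downstream windows contained a further AATAAA, which 24.5% of all downstream windows did.

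The windows also differed in what is annotated in them. The downstream window of HMGB1 (chr13:31032379-31032878) lies in an exon of HMGB1 itself over all 500 nt in GENCODE 44, as 26.0% of the windows lie in an exon of the same strand. Its reads there may belong to longer transcripts of the gene that end at a later PAS, and their part in the values was not tested. The window of XRCC5 (chr2:217071017-217071516) overlaps 10 nt of an XRCC5 exon. Those of PCNA (chr20:5095099-5095598) and RAD23B (chr9:110094476-110094975) overlap 0 nt of any exon on their strand. The genes themselves span 96997 nt for XRCC5, 48959 nt for RAD23B, 11670 nt for PCNA and 7203 nt for HMGB1, against a median of 19538 nt. HMGB1 and PCNA have processed pseudogenes, and reads that align equally well to a copy are removed by the mapping quality filter, so that their levels may be understated.

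In the deposited values, reads are divided by 1 size factor per library, which leaves the ratio of the windows unchanged. The upstream windows of all genes held 262657 to 481798 reads per library and the downstream windows 50814 to 92566. Of 10 markers of A549 cells, 6 had a row, among them KRT18 and ALDH1A1, and their summed upstream reads were 10760 and 13097 in UV− and 11349 and 12148 in UV+. Of 12 markers of other cell types, CD68 had a row, and its upstream window held 53.3 and 71.0 normalized reads without irradiation and 104.1 and 132.5 with it. All libraries are of the A549 line, and the source of the CD68 reads was not tested. The other 11 markers were not analysed here. The methods call the libraries biological replicates. The study kept genes with 10 reads or more in each window in at least 1 condition, and 4151 of the 4208 genes meet this when the reads of the libraries of a condition are summed. Read so, XRCC5 and PCNA met it in both conditions, HMGB1 only in UV−, with 17 summed downstream reads against 6, and RAD23B only in UV+, with 23 against 9. On this reading, HMGB1 and RAD23B were kept through the condition in which their downstream reads were higher. Their place in the table is thus not independent of the difference. Over all genes, 977 met the filter only in UV− and 1229 only in UV+ when read so, and calls among them can carry the same limit. The exact filter used is uncertain, since 4151 is not all of the 4208 genes.

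XRCC5 had fewer reads in UV+ on both sides of the PAS, and lost more of them downstream. Past its PAS, 85 and 164 reads were counted in replicates 1 and 2 of UV−, which were 118.3 and 134.5 normalized reads. In UV+ it held 38 and 48 reads, or 30.9 and 46.4 normalized reads. Both UV+ libraries were thus below both UV− libraries. The mean downstream level was 126.4 ± 11.5 in UV− and 38.7 ± 11.0 in UV+ (normalized reads, mean ± SD, n = 2), which is 3.27-fold lower. Upstream, XRCC5 had 126.6 and 169.0 normalized reads in UV− and 101.6 and 103.5 in UV+, again without overlap and 1.44-fold lower. The log2 fold change was −1.71 (SE 0.3) downstream, −0.51 (SE 0.25) upstream and −1.20 (SE 0.4) for the ratio of the windows, all on log2 values with a pseudocount of 1.

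HMGB1 had fewer reads downstream and more upstream in UV+, a combination that none of the other 3 genes had. Without irradiation 4 reads (replicate 1) and 13 reads (replicate 2) lay downstream, and with it 6 (replicate 1) and 0 (replicate 2). The normalized values of 5.57 and 10.7 in UV− were both above the 4.88 and 0 in UV+, but the lower UV− and the higher UV+ value lay close together. Upstream, HMGB1 had 47.3 and 39.4 normalized reads in UV− and 62.6 and 70.6 in UV+, a 1.54-fold higher mean without overlap. The log2 fold change was 0.61 (SE 0.3) upstream, −1.85 (SE 0.98) downstream and −2.46 (SE 1.1) for the ratio. UV+ replicate 2, with 0 of 73 reads downstream, set much of this, and without it the ratio changed by −1.10 and the downstream window by −0.57. Without UV+ replicate 1 the same changes were −3.83 and −3.13.

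PCNA had the most reads of the 4 and gained on both sides of the PAS, far more downstream than upstream. Without irradiation the window past the PAS had 11 reads in replicate 1 and 5 in replicate 2, and with it 95 and 77. After normalization these were 15.3 and 4.1 in UV− and 77.3 and 74.5 in UV+, so that the UV+ libraries lay close together and well above both UV− libraries. The mean rose 7.82-fold from 9.7 ± 7.92 to 75.9 ± 1.96 normalized reads (n = 2). Upstream it went from 400.8 and 516.8 to 629.4 and 786.5 normalized reads, 1.54-fold higher and without overlap. The log2 fold change was 3.07 (SE 0.52) downstream, 0.63 (SE 0.21) upstream and 2.45 (SE 0.68) for the ratio. The UV− libraries differed between themselves, and the change of the ratio was 1.43 without UV− replicate 2 and 3.47 without UV− replicate 1.

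RAD23B, the gene with the fewest reads, had more reads downstream and fewer upstream in UV+. Downstream, 2 reads in replicate 1 and 7 in replicate 2 of UV− stood against 11 and 12 of UV+, or 2.78 and 5.74 against 8.94 and 11.6 normalized reads. The upstream window held 14 and 19 reads in UV− and 14 and 9 reads in UV+, or 19.5 and 15.6 against 11.4 and 8.71 normalized reads. Neither window overlapped between the conditions, although each rests on at most 19 reads a library. The sum of both windows of RAD23B was 21.8 without and 20.3 with irradiation (mean of normalized reads, n = 2), a factor of 0.932. These sums rest on few reads, and whether the 2 changes are linked was not tested. The log2 fold change was 1.15 (SE 0.7) downstream, −0.75 (SE 0.54) upstream and 1.90 (SE 0.86) for the ratio.

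**Figure D1:**
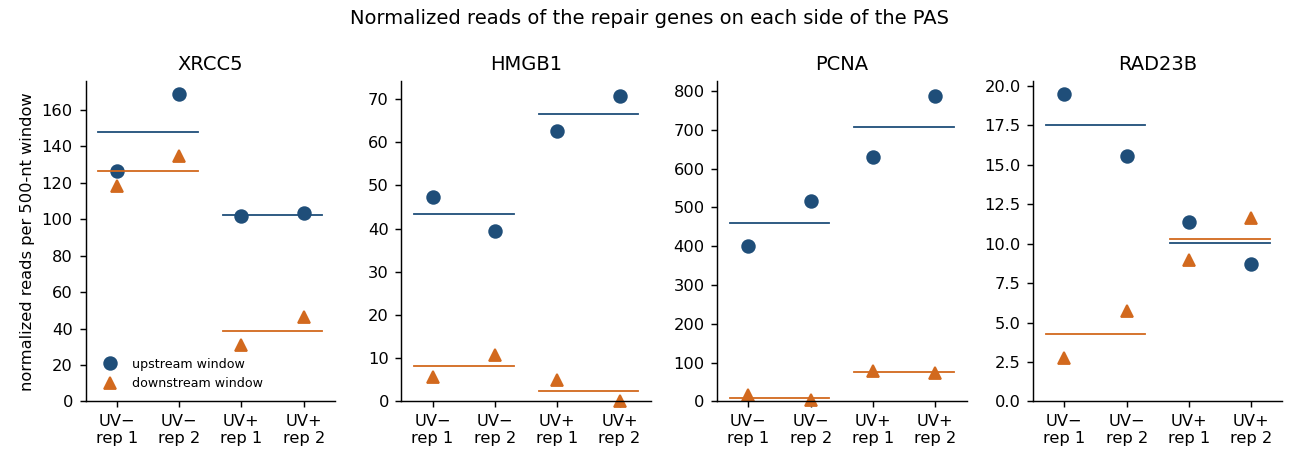
Normalized reads per 500-nt window (vertical axis, starting at 0 and scaled for each gene) in the 2 UV− and 2 UV+ libraries, with circles for the upstream and triangles for the downstream window and a line at the mean of each condition. The downstream triangles fall in UV+ for XRCC5 and HMGB1 and rise for PCNA and RAD23B, where they meet the upstream circles at 8.71 to 11.6 normalized reads.

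Both windows are 500 nt long in each gene, so that the order of the levels needs no correction for window length. Other limits remain, since the levels of HMGB1 and PCNA may be understated and the downstream window of HMGB1 lies in its own exon. Upstream, the order in UV− was PCNA with 458.8 ± 82.0, XRCC5 with 147.8 ± 29.9, HMGB1 with 43.3 ± 5.61 and RAD23B with 17.5 ± 2.76 normalized reads (mean ± SD, n = 2). The order was the same in UV+, with 707.9 ± 111.1, 102.6 ± 1.31, 66.6 ± 5.66 and 10.0 ± 1.89 (n = 2), and no neighbors overlapped in either condition. Downstream, XRCC5 led in UV−, and PCNA, HMGB1 and RAD23B followed with 9.7 ± 7.92, 8.12 ± 3.6 and 4.26 ± 2.09 (n = 2), which overlapped. In UV+ the downstream order was PCNA, XRCC5, RAD23B and HMGB1, with no overlap between neighbors.

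The share of the reads of both windows that lay downstream was highest for XRCC5 and lowest for PCNA in UV−. With 95% Wilson intervals, which cover counting error only, XRCC5 had 48.3% (41.0 to 55.6) and 44.3% (39.3 to 49.4) of its reads downstream in the 2 UV− libraries. The median gene had 22.2% and 21.6% in the same libraries. PCNA had 3.68% (2.07 to 6.47) and 0.787% (0.337 to 1.83), intervals that do not meet, so that its UV− libraries differed by more than counting error. RAD23B had 12.5% (3.5 to 36.0) and 26.9% (13.7 to 46.1) and HMGB1 10.5% (4.17 to 24.1) and 21.3% (12.9 to 33.1), and these 2 genes overlapped. The interval of RAD23B replicate 2 also met those of XRCC5, and that of PCNA replicate 1 met those of replicate 1 of RAD23B and HMGB1.

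In UV+ the order of the shares changed. RAD23B was highest with 44% (26.7 to 62.9) and 57.1% (36.5 to 75.5), and XRCC5 followed with 23.3% (17.5 to 30.4) and 31.0% (24.2 to 38.6). The median gene had 27.6% and 27.3%, between the libraries of XRCC5. PCNA had 10.9% (9.03 to 13.2) and 8.65% (6.98 to 10.7), which remained below the median gene. HMGB1 had 7.23% (3.36 to 14.9) and 0 of 73 reads, with a Wilson interval up to 5.0%. By the simpler rule of 3 counts, 0 of 73 reads allows a share of up to 4.11%. Both limits cover counting error only. This library, UV+ replicate 2, had 498 genes without a downstream read, against 191 in UV+ replicate 1 and 305 and 231 in UV−. The part of this excess in the 0 of HMGB1 was not tested. The intervals of RAD23B and XRCC5 met, except those of RAD23B replicate 2 and XRCC5 replicate 1, and the interval of HMGB1 replicate 1 met both of PCNA. That of RAD23B replicate 1 held the share of the median gene. Between the conditions, the intervals of RAD23B met, except those of UV− replicate 1 and UV+ replicate 2. Those of HMGB1 met as well, except those of UV− replicate 2 and UV+ replicate 2.

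**Figure D2:**
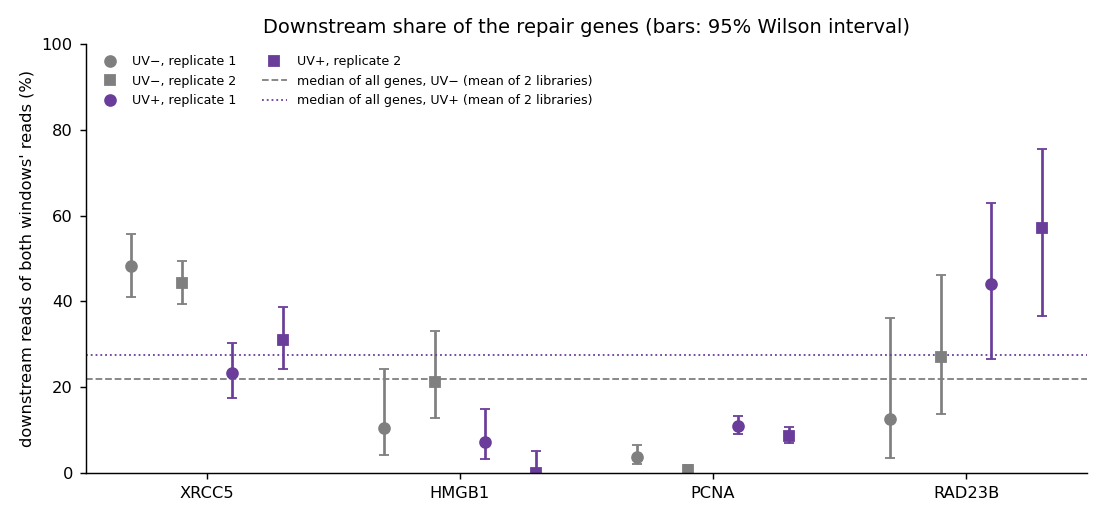
Downstream reads as a percentage of the reads of both windows (vertical axis) for each gene and library, with 95% Wilson intervals as bars, UV− in grey and UV+ in purple, and the median of all genes as a dashed (UV−) and a dotted (UV+) line. XRCC5 comes down from 48.3% and 44.3% to the level of the median gene, and PCNA stays below it in all 4 libraries. The shares of RAD23B lie above it in UV+, where the interval of replicate 1 reaches it.

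The rank of each gene among all 4208 genes of a library shows how ordinary these levels were. In the downstream window, XRCC5 stood at percentiles 98.5 and 99 in UV− and at 87.2 and 93.2 in UV+, so that it stayed among the genes with many reads past the PAS. PCNA stood at 74.5 and 24.9 in the 2 UV− libraries and at 97.1 and 96.8 in UV+. Upstream, PCNA was between percentiles 96.5 and 98.3 in all 4 libraries and XRCC5 between 85.7 and 90.6, while RAD23B was between 25.4 and 39.7. In the ratio, PCNA stood at percentiles 8.37 and 1.35 in UV− and at 17.6 and 17 in UV+, and thus remained low among genes in the share that lay past the PAS. RAD23B went from 34.8 and 56.7 to 70.3 and 79.8, and HMGB1 from 27.8 and 47.2 to 12.7 and 2.38.

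Set beside all 4208 genes, the ratio of all 4 genes did not overlap between the conditions, upward for PCNA and RAD23B and downward for XRCC5 and HMGB1. Over the table, 32.6% of the genes had both UV+ libraries above both UV− libraries and 12.9% had both below. The separate windows did not overlap either, where 28.1% of all genes were without overlap upward and 41.3% downward in the upstream window, and 36.8% upward and 30.4% downward in the downstream window. As the choice of the genes used this contrast, nothing is read from these counts. The median change of all genes (log2) was 0.38 in the ratio, −0.24 in the upstream and 0.24 in the downstream window. For the ratio, HMGB1 stood at percentile 1.02, XRCC5 at 8.37, RAD23B at 89.2 and PCNA at 95.5 of all genes. In the upstream window the same genes were nearer the middle, between percentile 35.3 for RAD23B and 76.3 for PCNA.

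The genes were also set beside others of similar length, a grouping made after the values were seen. XRCC5 and RAD23B belong to the longest of 4 equal groups, 1050 genes of at least 46716 nt, where the median change (log2) was −1.56 in the upstream and −1.52 in the downstream window. Upstream, XRCC5 with −0.51 and RAD23B with −0.75 lay at percentiles 83.8 and 77.1 of that group. Downstream, XRCC5 with −1.71 lay near its middle, at percentile 44.6, and RAD23B with 1.15 at percentile 95.1. HMGB1 and PCNA belong to the group of 7073 to 19553 nt, whose median was 0.14 upstream and 0.78 downstream. Their upstream changes of 0.61 and 0.63 lay at percentiles 69.5 and 70 of it, and their downstream changes of −1.85 and 3.07 at percentiles 3.9 and 96.8.

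**Figure D3:**
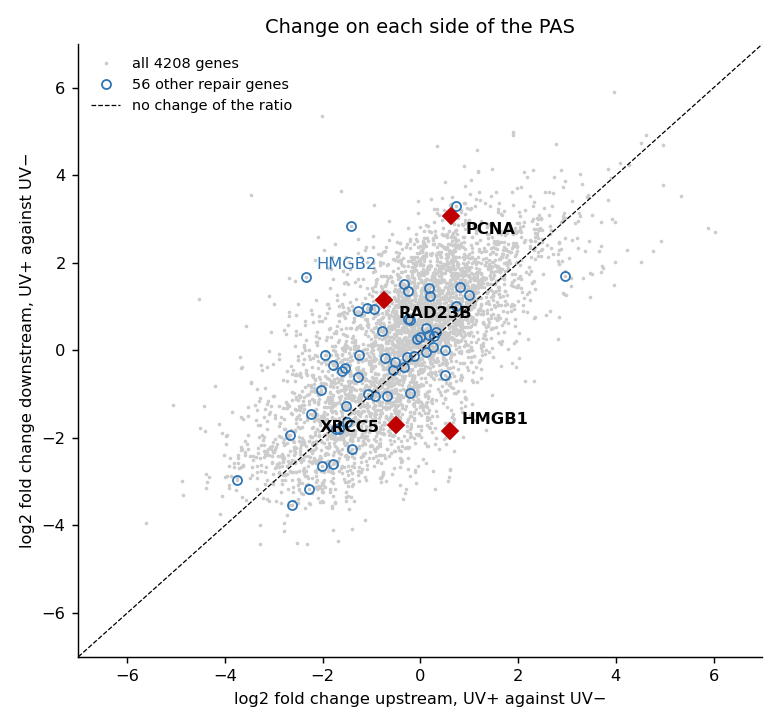
Log2 fold change between UV+ and UV− in the downstream window (vertical axis) against that in the upstream window (horizontal axis), with grey points for all genes, open circles for the 56 other repair genes, red diamonds for XRCC5, HMGB1, PCNA and RAD23B, and a dashed line where the ratio does not change. PCNA and RAD23B lie above the line and XRCC5 and HMGB1 below it, and the paralog HMGB2 lies far above the line on the other side from HMGB1.

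For each gene, the 3 genes with the closest pattern were found over 8 values, the log2 values of each window in 4 libraries, each window centered on its own mean. Likeness is the root mean square difference on the log2 scale, over 3339 genes with a mean of at least 10 upstream reads. The closest to XRCC5 were HGD, CLN6 and CNTN1, with differences of 0.18, 0.18 and 0.23 where the median gene had 0.98. The closest to HMGB1 were TM4SF4, PDIA3P1 and CD70, with 0.26, 0.27 and 0.29 against a median of 1.27. The closest to PCNA were APEX2, NOLC1 and RPS21, with 0.21, 0.24 and 0.27 against 1.23. Those of RAD23B were PCBP2, EIF4G2 and HNRNPH3, with 0.17, 0.21 and 0.21 against 0.83. These neighbors share a pattern of change and not a level, since EIF4G2 had 673.1 upstream reads in UV− where RAD23B had 17.5. Downstream, some neighbors held few reads. In UV−, APEX2 and NOLC1 had a mean of 0.696 normalized reads there and PCBP2 1.93, while RPS21 had 8.44, EIF4G2 16.4 and CNTN1 29.8. Where reads are few, the likeness depends on the pseudocount.

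The other genes of DNA repair were taken from 8 lists with 180 genes, of which 60 had a row, these 4 included. Of the partners and paralogs of the 4 genes, CETN2, HMGB2, RFC4 and RFC5 were measured, and XRCC6, PRKDC, XPC, HMGB3, RFC1, RFC2 and RFC3 were not analysed here. End joining had no measured member other than XRCC5. The tests below are limma fits over all 4208 genes and leave the 4 genes out.

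HMGB2, the paralog of HMGB1 and likewise a DNA-bending protein, changed its ratio in the direction opposite to that of HMGB1. Its downstream window had 6.96 and 7.38 normalized reads in UV− and 22.8 and 28.1 in UV+, without overlap. Upstream it had 18.1 and 14.8 in UV− and 10.6 and 0 in UV+, where UV+ replicate 2 had no read. The log2 fold change of the HMGB2 ratio was 4.04 (SE 1.03), and its unadjusted p was 0.0023 and its adjusted p 0.21 from limma. Its call held at an unadjusted p under 0.05 in every alternative that tested it. The difference between HMGB2 and HMGB1 itself was not tested.

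Of the measured partners of RAD23B and PCNA, 1 did not pass the test and the other two fell upstream. CETN2, the centrin that binds XPC together with RAD23B, had 162.1 ± 16.7 upstream reads in UV− and 229.5 ± 18.1 in UV+ (n = 2), with an adjusted p of 0.095 from limma. Its ratio had a log2 fold change of −1.07 and did not pass, where that of RAD23B was 1.90. RFC4 and RFC5, subunits of the clamp loader that places PCNA on DNA, both fell upstream, where PCNA had more reads. RFC5 went from 66.8 and 68.9 to 21.1 and 22.2 normalized reads, which is −1.60 on the log2 scale (SE 0.34) with an adjusted p of 0.0034 from limma. RFC4 went from 41.7 and 55.8 to 22.0 and 17.4, with −1.26 (SE 0.38, adjusted p = 0.023 from limma). The call of RFC4 ended with DESeq2 and without each of the 4 libraries in turn, and that of RFC5 without UV− replicate 1 and without UV− replicate 2. Neither passed the test in the ratio, with log2 fold changes of 1.14 each.

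In the ratio, 5 of the 56 other repair genes (8.93%) passed the limma test upward, with an unadjusted p below 0.05, and 0 passed it downward. Over all genes 11.0% were higher and 2.4% lower, so that the repair genes were near the background. By the same rule, edgeR called 5 higher and 0 lower, though not the same 5 genes as limma, and DESeq2 called 4 and 0. At an adjusted p, 0 of the 56 passed in limma, where 0.143% of all genes were higher and 0.0238% lower. The median log2 fold change of the 56 was 0.30, beside 0.38 for all genes. Besides HMGB2, the 5 were UBE2N, which joins ubiquitin to PCNA in chains, POLE2, a subunit of DNA polymerase epsilon, the recombination motor RAD54L and the abasic site nuclease APEX2. RAD54L had 0 downstream reads in both UV− libraries and 6 and 8 reads in UV+, and the POLE2 windows of UV+ held 0 and 20 reads upstream, so that both ratios rest on few reads. The call of POLE2 ended in 7 alternatives, edgeR and DESeq2 among them, that of APEX2 in 4, that of UBE2N in 2 and that of RAD54L in 1, and the count of 5 fell to 3 without UV− replicate 1 and to 2 without UV− replicate 2, while 1 and 2 genes were lower without UV+ replicates 1 and 2. In 3 of the 5, the downstream window overlaps an annotated exon by less than 250 nt, and UBE2N and APEX2 have 500 nt of exon there. When the reads of a condition are summed, RAD54L and APEX2 met the filter only in UV+, where their downstream reads were higher. Their calls are thus not independent of the filter.

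By pathway, none of the 9 nucleotide excision repair genes other than RAD23B was called in the ratio, and their median was 0.64. Over all genes the median was 0.38, with 11.0% called higher and 2.4% lower. Of the 14 clamp and translesion genes other than PCNA, 2 were called higher, and the median of the 14 was 0.81. Of the 3 other HMG and FACT genes 1 was called higher, HMGB2, and the median of the 3 was 0.24. Of the 8 base excision genes and the 13 recombination genes 1 each was called higher, and 0 of the 4 mismatch repair and 0 of the 5 signaling genes were called. The lists are small, and the 4 genes described, chosen with their ratios known, are not set against these medians.

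In the upstream window, 1 of the 56 rose and 14 fell at an adjusted p under 0.05 from limma, which is 1.79% and 25.0%, where 11.7% of all genes rose and 20.7% fell. The median of the 56 was −0.71, beside −0.24 for all genes. The 1 that rose was POLH, the polymerase that copies past UV lesions. It had 2.78 and 4.1 normalized reads in UV− and 32.5 and 33.9 in UV+. This is 2.96 on the log2 scale (SE 0.57), with an adjusted p of 0.002 from limma. When the reads of a condition are summed, POLH met the filter only in UV+, so that its place in the table is not independent of this rise. Besides RFC4 and RFC5, those that fell in the clamp and translesion list were HLTF, UBE2N and the flap nuclease FEN1, with −1.54, −1.27 and −0.95. In mismatch repair, the lesion sensor MSH6 fell by 2.24 and the nuclease EXO1 by 2.02 on the log2 scale. Of the recombination genes, NBN and RAD50, subunits of the complex that senses broken ends, had −1.72 and −2.28, RECQL had −0.93 and FANCB −2.64. CUL4B, a scaffold of the ligase that marks UV lesions, had −1.96, and TP53BP1 and BRCC3 of damage signaling had −3.75 and −1.28. Of the genes that fell, RFC4, RECQL, FANCB and TP53BP1 met the filter on summed reads only in UV−, and CUL4B and FEN1 only in UV+. Leaving out UV− replicate 1 or UV− replicate 2 left 0 calls in either direction, where over all genes it left 1 and 0 or 2 and 0, so that this loss was not particular to repair genes. Such a fit takes its spread from the other condition alone and assumes that the single library varies alike. The lower calls numbered 5 without UV+ replicate 2 and with DESeq2. With TMM factors, which moved the median upstream change of all genes by 0.19, the counts were 3 higher and 10 lower, and over all genes 648 and 721 in place of 492 and 872. The 56 genes had a median length of 29660 nt.

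Downstream, 3 of the 56 rose and 6 fell at an adjusted p under 0.05 from limma, or 5.36% and 10.7%, where 11.7% of all genes rose and 9.41% fell. The 3 were HMGB2, APEX2 and RAD54L, with log2 fold changes of 1.69, 3.29 and 2.84, beside 3.07 for PCNA. That of RAD54L stands against 0 reads in UV− and depends on the pseudocount. Of the 6 that fell, RAD50, FANCB and TP53BP1 had −3.18, −3.54 and −2.95 and the others −2.59 to −1.0, beside −1.71 for XRCC5 and −1.85 for HMGB1. On summed reads, APEX2 and RAD54L met the filter only in UV+, and FANCB, TP53BP1, BRCA2 and POLK, which fell, only in UV−. These calls are thus not independent of the filter. The median was −0.12 over the 56 genes and 0.24 over all genes. With DESeq2, 0 rose and 0 fell, with edgeR 4 and 7, and without UV− replicate 1, UV− replicate 2, UV+ replicate 1 or UV+ replicate 2 at most 1 was left in each direction.

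**Figure D4:**
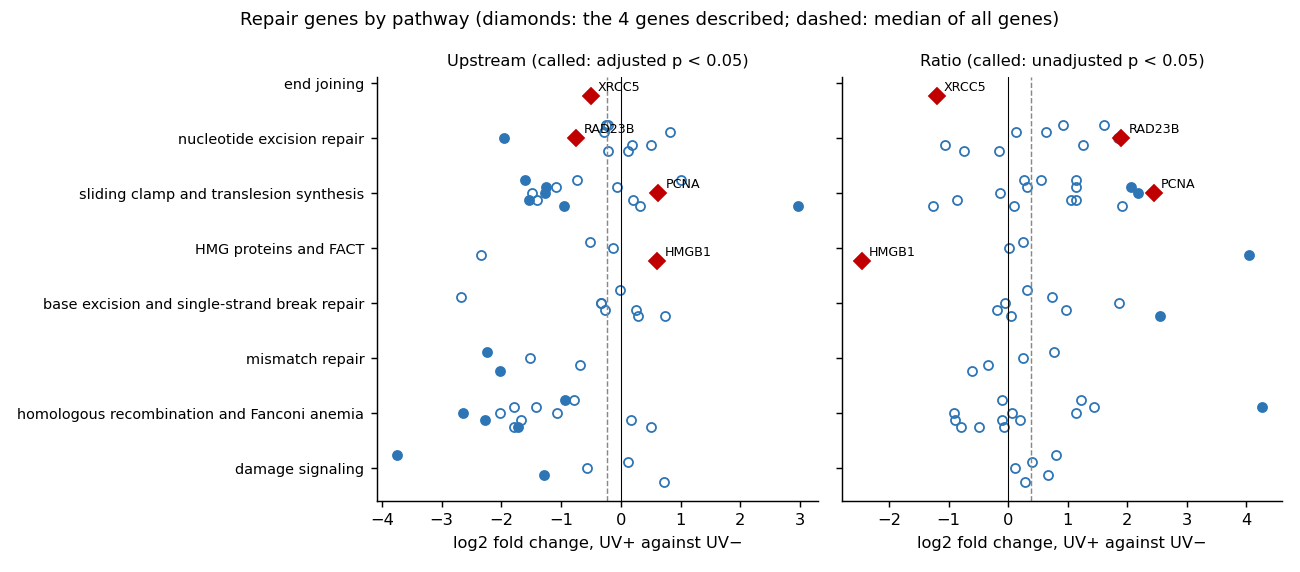
Log2 fold change between UV+ and UV− (horizontal axes) of the upstream window (left) and of the downstream/upstream ratio (right) for 60 repair genes by list, with filled circles for calls, open circles for the rest, red diamonds for the 4 genes described and a dashed line at the median of all genes. Most filled circles lie to the left upstream, 14 against 1, and the 5 filled circles of the ratio lie to the right.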

How the data were processed

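Nuclear RNA of A549 cells was compared between 2 UV+ and 2 UV− libraries. The authors used cutadapt for trimming and TopHat2 for alignment to hg19, kept reads of mapping quality 20 or more with SAMtools and counted them with featureCounts in 500-nt windows on each side of the PAS of RefSeq genes. They dropped genes whose downstream window overlapped another gene or that had too few reads. The deposited signal values are these reads divided by 1 size factor per library. Undoing the division gave whole reads for 100% of 33664 values (tolerance 1e-06 read). The table also holds DESeq2 fold changes and p-values of the authors' own comparison, which were not used.

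Values were tested with limma 3.58.1 in R 4.3.3 on log2 values (pseudocount 1), for each window and for the difference of the windows. The variance trend of the difference followed the mean downstream level, which limits its precision. Calls in the ratio used an unadjusted p under 0.05, the threshold of the study, and calls in a window a Benjamini-Hochberg adjusted p under 0.05 over 4208 genes. edgeR 4.0.16 and DESeq2 1.42.0 on the whole reads were alternatives, and the fits of the ratio were tested on simulated data. In the table, 3 symbols had turned into dates and 3 rows had shifted cells, and these genes were kept without a name. Sequence and exons came from GRCh37, the build of the table, and GENCODE 44 lifted to it, with Python 3.11.15. The 4 genes, the gene lists and the rules for named genes were chosen with earlier results of these data known. Named are the 4 genes, their partners, up to 4 called genes of the smallest p in each list for the upstream window and for the ratio, further called genes that complete a count, and the 3 genes of most similar pattern. With 2 libraries per condition, p-values rest on the spread of 4 libraries, which limma draws toward a trend over all genes.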

Additional observations from a re-analysis of the deposited data

How the results depend on the processing

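The changes of XRCC5, HMGB1, PCNA and RAD23B kept their sign in each window and in the ratio under every alternative that gave them a value. HMGB1 and RAD23B gave none with a mean of at least 10 normalized reads required in both windows. The ratio of HMGB1 ranged from −3.83 to −1.10 when 1 library was left out, that of PCNA from 1.43 to 3.47, that of RAD23B from 1.33 to 2.47 and that of XRCC5 from −1.47 to −0.93. Depth limits the downstream values of HMGB1 and RAD23B, with 0 to 13 reads a library, and those of PCNA in UV−, with 5 and 11.

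Counts of calls are given as higher then lower in UV+. With the mean of at least 10, only 1538 genes were tested, 19 of them other repair genes. These counts are thus not directly comparable with those over 4208 genes. Over all tested genes there were 245 and 44 calls in the ratio, 314 and 358 upstream and 369 and 227 downstream. Among the 19 repair genes the counts were 2 and 0 in the ratio, 0 and 7 upstream and 1 and 4 downstream. With DESeq2, upstream calls were 322 and 562 with 5 repair genes lower, and downstream calls 205 and 126 with 0 and 0 repair genes. Upstream, 2 repair genes were higher with a pseudocount of 5 and with edgeR, and 3 with TMM factors. Of the 34 other repair genes with under 250 nt of exon downstream, 3 were higher in the ratio. This alternative was chosen after seeing the data and recounts the main fit without a new one.

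Leaving out 1 library gave 217 to 568 higher and 36 to 270 lower in the ratio, 1 to 280 and 0 to 820 upstream, and 7 to 105 and 8 to 106 downstream. Among the repair genes the ranges were 2 to 6 and 0 to 2 in the ratio, 0 to 1 and 0 to 10 upstream, and 0 to 1 and 0 to 1 downstream. The causes were not tested.

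Same-numbered libraries did not deviate together from the group means, with correlations over genes of 0.0004 upstream, 0.026 downstream and 0.032 in the ratio. The labels give no pairing, and with 2 libraries per condition these values cannot tell whether same-numbered libraries share a batch. A replicate block gave 493 and 115 calls in the ratio, 569 and 985 upstream and 657 and 556 downstream, with 2 repair genes higher and 16 lower upstream.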
